A study of Arabidopsis thaliana with 12 samples.

Results

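LKR/SDH, ASADH, DAPE and MGL are 4 enzyme genes of lysine breakdown and of the aspartate family of amino acids, and their transcript levels were followed through seed maturation in Arabidopsis thaliana. The members were the probe sets whose platform annotation names 1 of the loci AT4G33150, AT1G14810, AT3G53580 or MGL (AT1G64660) and no other gene. Each locus had 1 such probe set (253373_at, 262841_at, 251948_at and 261957_at), so 4 of the 22746 probe sets on the array were described, and 0 further probe sets named a member together with another gene. Seeds of the KD genotype and of WT, both in the Wassilewskija (WS) accession and grown in a greenhouse under long days, were taken on days 14 and 16 after flowering, here 14DAF and 16DAF, or once they had dried. That gave 6 groups in this order: KD 14DAF, WT 14DAF, KD 16DAF, WT 16DAF, KD dry and WT dry, with 2 Affymetrix ATH1 arrays each and 12 in all. Seeds were dissected from siliques of marked flowers, pooled in large numbers for each extraction, and their RNA was amplified before labelling.

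Lysine, threonine, methionine and isoleucine are all made from aspartate. ASADH (AT1G14810), aspartate semialdehyde dehydrogenase, acts on the shared stem before the branches part, and DAPE (AT3G53580), diaminopimelate epimerase, acts late in the branch that leads to lysine. LKR/SDH (AT4G33150), a single protein with lysine-ketoglutarate reductase and saccharopine dehydrogenase activities, begins lysine breakdown, and MGL, methionine gamma-lyase, breaks methionine down to a precursor from which isoleucine can be made. In seeds, lysine breakdown is known to limit how much free lysine accumulates.

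The work cited for the KD genotype joined a knockout of LKR/SDH to a bacterial dihydrodipicolinate synthase, an enzyme at the entry of the lysine branch that lysine does not inhibit in its bacterial form, expressed in seeds. The labels do not say what KD stands for or which changes these plants carry, and no source used here places the LKR/SDH probe set with respect to an insertion. The probe set therefore checks no knockout, and KD and WT below mean the arrays labelled so. The source name of WT 16DAF replicate 1 and of KD dry replicate 1 gives the other genotype than the title, and the title was followed.

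Replicate arrays correlated at r = 0.983 to 0.993 across probe sets, 12 of 12 arrays had their group partner as the closest array, and array medians ran from 4.91 to 5.28 on the log2 scale. Of 13 reserve and embryo regulator genes listed as markers of the seed, 0 had a probe set naming them alone. The oleosin gene OLEO3 and the storage cupin gene AT1G03890 were read in their place. They were chosen with their values known, so they describe the samples and cannot test the seed label. OLEO3 ran from 9.75 to 13.74 and AT1G03890 from 11.88 to 13.85 over the 12 arrays, far above the array medians. The 3 measured seed coat genes of 11 listed (BAN, DFR and DELTA-VPE) averaged 7.66, 6.16 and 4.03 in KD over the 3 stages, against 8.03, 5.52 and 4.05 in WT, and so moved with the stage. The endosperm gene AGL62 (1 of 6 listed measured) lay at 2.90 to 3.64 and the silique gene ALC (1 of 6 listed measured) at 3.39 to 4.26 on all arrays, below every array's median. ALC passed as lower in KD at 16DAF (-0.435) and averaged over stages (-0.25), with signals too dim to size the difference. In a pooled seed sample, fewer cells of a type and less RNA per cell cannot be told apart.

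**Figure D1:**
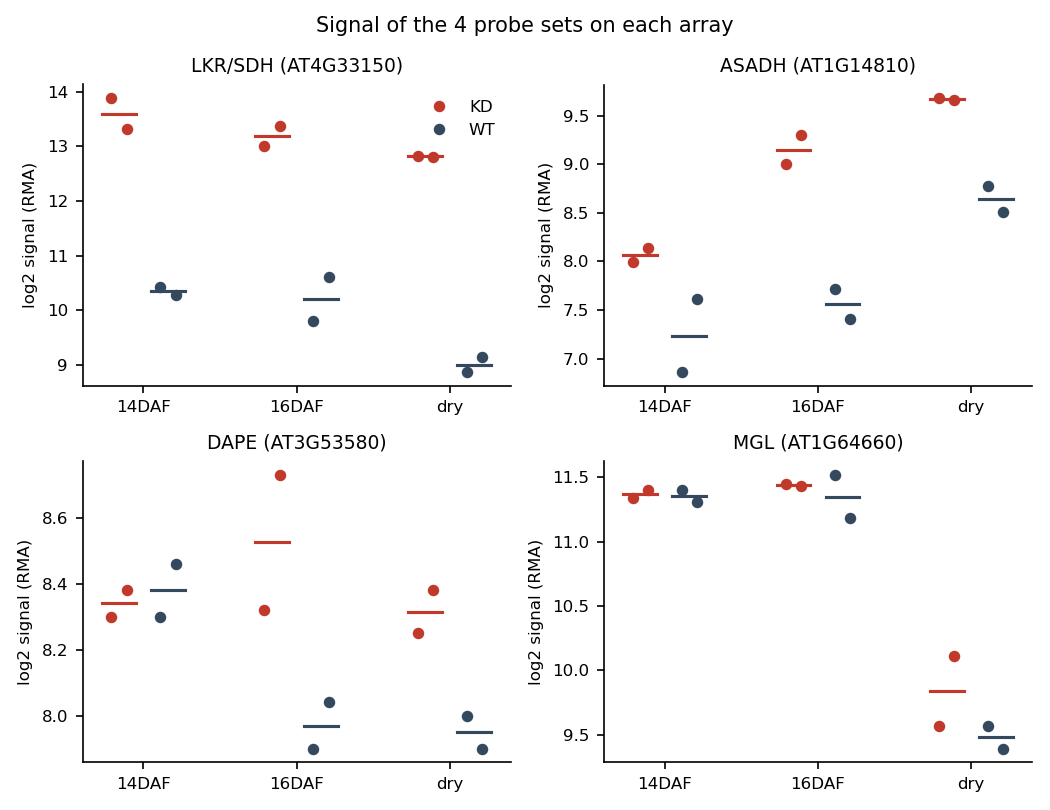
Each point is 1 array's log2 signal for 1 probe set, with KD to the left of WT at each of the 3 stages and the line at the mean of 2 arrays. LKR/SDH separates the genotypes at every stage (KD 12.80 to 13.88, WT 8.87 to 10.61), ASADH climbs over the stages in both with KD above WT, DAPE stays between 7.90 and 8.73, and MGL is high at 14DAF and 16DAF and low in dry seeds; the vertical scales differ between panels.

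The share of the variation over the 12 arrays that went with genotype or stage differed widely among the 4 genes, as the plot of signal by array shows. For LKR/SDH 90.8% of the sum of squares lay between genotypes and 6.58% between stages. For MGL the shares were 0.874% and 95.6%. ASADH was divided between the factors, with 42.8% for genotype and 49.3% for stage. DAPE varied least, over a range of 0.83 on the log2 scale against 5.01 for LKR/SDH, 2.82 for ASADH and 2.13 for MGL. Of its small variation 38.5% went with genotype, 15.5% with stage and 27.6% with their interaction, and 18.4% lay within groups.

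LKR/SDH was far higher in KD than in WT at all 3 stages. KD replicates 1 and 2 gave log2 signals of 13.88 and 13.31 at 14DAF, against 10.42 and 10.29 in WT. At 16DAF they gave 13.01 and 13.37 in KD, against 9.80 and 10.61 in WT, and in dry seeds 12.83 and 12.80, against 8.87 and 9.15. Every KD array lay above every WT array, a pattern found in 1.29% of all probe sets (the KD mean alone exceeded WT at all 3 stages in 18.3%), and the 2 arrays with conflicting source names (9.80 and 12.83) lay with the genotype of their titles. KD was 9.45-fold higher at 14DAF (log2 difference 3.24, SE 0.267, adjusted p = 0.0004), 7.92-fold higher at 16DAF (2.98, SE 0.267, adjusted p = 0.000284) and 14.0-fold higher in dry seeds (3.80, SE 0.267, adjusted p = 7.37e-05). Averaged over the stages the difference was 3.34 (SE 0.154, adjusted p = 4.41e-06, 95% interval 3.0 to 3.69). Of all 22746 probe sets 2 had a larger average increase, and 1 of these was named, AT1G73490 at 4.08; the next named gene below LKR/SDH was AT1G17960 at 3.08.

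None of the measured genes beside LKR/SDH on the chromosome passed the threshold as higher in KD averaged over stages. Of the 5 annotated genes on either side in the TAIR10.1 gene table, 7 had probe sets naming them alone (8 probe sets). Their KD minus WT differences averaged over stages ran from -0.47 to 0.17, and 0 passed as higher in KD. Of all probe sets 8.72% were higher and 11.5% lower on this average. The 8 probe sets are too few to set a count of 0 apart from that share. AT4G33130, the third gene on one side, was lower in KD (-0.47, SE 0.127, adjusted p = 0.0251), with -1.44 at 14DAF (adjusted p = 0.00455) but 0.27 at 16DAF and -0.23 in dry seeds, neither of which passed. The nearest measured genes, AT4G33140 (-0.03, SE 0.112) and AT4G33160 (-0.29, SE 0.236), did not pass (adjusted p = 0.884 and 0.466), and the average of AT4G33140 joins -0.70 at 14DAF to 0.53 at 16DAF. Each other member had 5 measured neighbours. On the same average 1 passed as lower in KD beside ASADH (AT1G14770, -0.75) and 1 as higher beside DAPE (AT3G53560, 0.39). Beside MGL 2 passed as higher (AT1G64680, 0.67, and AT1G64710, 0.77).

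In the order of group means LKR/SDH ran KD 14DAF (13.60 ± 0.40), KD 16DAF (13.19 ± 0.25), KD dry (12.82 ± 0.02), WT 14DAF (10.36 ± 0.09), WT 16DAF (10.21 ± 0.57) and WT dry (9.01 ± 0.20; SD, n = 2 each). The arrays of 14DAF and 16DAF overlapped within each genotype, and the other neighbours in this order did not overlap. Both genotypes were thus lowest in the dry state. On drying LKR/SDH fell in WT (-1.20, SE 0.267, adjusted p = 0.005), while in KD the step was -0.38 (SE 0.267, adjusted p = 0.331, 95% interval -0.97 to 0.22). The difference between these steps was 0.82 (SE 0.378) and did not pass (adjusted p = 0.379). The WT decrease was -0.79 without WT 16DAF replicate 2 (adjusted p = 0.0311), which also brought the difference between the steps to 0.42, and the KD step was -0.20 without KD 16DAF replicate 2.

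ASADH was higher in KD as well, by a smaller factor. The KD arrays gave 7.99 and 8.14 at 14DAF, against 6.86 and 7.61 in WT. At 16DAF they gave 9.0 and 9.30 in KD, against 7.72 and 7.41 in WT, and in dry seeds 9.68 and 9.66, against 8.78 and 8.51. The genotypes did not overlap within any stage. Nor did they, in either direction, for 49.8%, 48.2% and 50.2% of all probe sets, taking the stages in order. For ASADH, KD 14DAF lay below WT dry. The difference was 3.0-fold at 16DAF (log2 difference 1.58, SE 0.232, adjusted p = 0.00232) and 2.03-fold in dry seeds (1.03, SE 0.232, adjusted p = 0.0243). At 14DAF it was 0.83 (SE 0.232) and missed the threshold (adjusted p = 0.0595). Averaged over stages it was 1.15 (SE 0.134, adjusted p = 0.000274), which placed ASADH 209th among all probe sets.

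Single arrays bore on the stage values of ASADH but not on its average. The dry difference had adjusted p = 0.11 and 0.134 without KD dry replicates 1 and 2 and 0.0627 and 0.172 without WT dry replicates 1 and 2. The 14DAF difference was 0.46 without WT 14DAF replicate 1 (adjusted p = 0.247), and it passed without WT 14DAF replicate 2 (1.21, adjusted p = 0.0215) or with 1 WT 16DAF array left out (adjusted p = 0.0485 for each). The 16DAF and the average difference passed without any single array, the average with values from 1.02 to 1.27. At 16DAF 1 of the 3 measured seed coat genes was also higher in KD: DELTA-VPE gave 7.24 and 7.73, against 5.44 and 5.81 in WT (1.86, SE 0.456, adjusted p = 0.0267), while the arrays of BAN and DFR overlapped between the genotypes. Its part in the ASADH difference was not tested. In dry seeds DELTA-VPE lay below the array medians in both genotypes (3.91 and 3.94 in KD, 3.73 and 4.14 in WT), too dim to compare them.

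ASADH also climbed as seeds matured. The groups ran KD dry (9.67 ± 0.01), KD 16DAF (9.15 ± 0.21), WT dry (8.65 ± 0.19), KD 14DAF (8.07 ± 0.11), WT 16DAF (7.57 ± 0.22) and WT 14DAF (7.24 ± 0.53; SD, n = 2 each), and in this order the arrays of WT 16DAF and WT 14DAF alone overlapped. In KD the step from 14DAF to 16DAF passed (1.08, SE 0.232, adjusted p = 0.0183) and the drying step was 0.52 (SE 0.232, adjusted p = 0.114). In WT the first step was 0.33 (SE 0.232, adjusted p = 0.391) and the rise on drying passed (1.08, SE 0.232, adjusted p = 0.00392). The genotypes' steps were not shown to differ, with an interaction of 0.75 (SE 0.328, adjusted p = 0.345) before 16DAF and -0.56 (SE 0.328, adjusted p = 0.511) after it. From 14DAF to the dry state the means differed by 1.60 in KD and 1.41 in WT, a span that was not tested. The KD step before 16DAF had adjusted p = 0.118 and 0.0535 without KD 14DAF replicates 1 and 2 and 0.131 without KD 16DAF replicate 2, and the KD drying step passed when 1 WT 14DAF array was left out (adjusted p = 0.0398 for each).

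**Figure D2:**
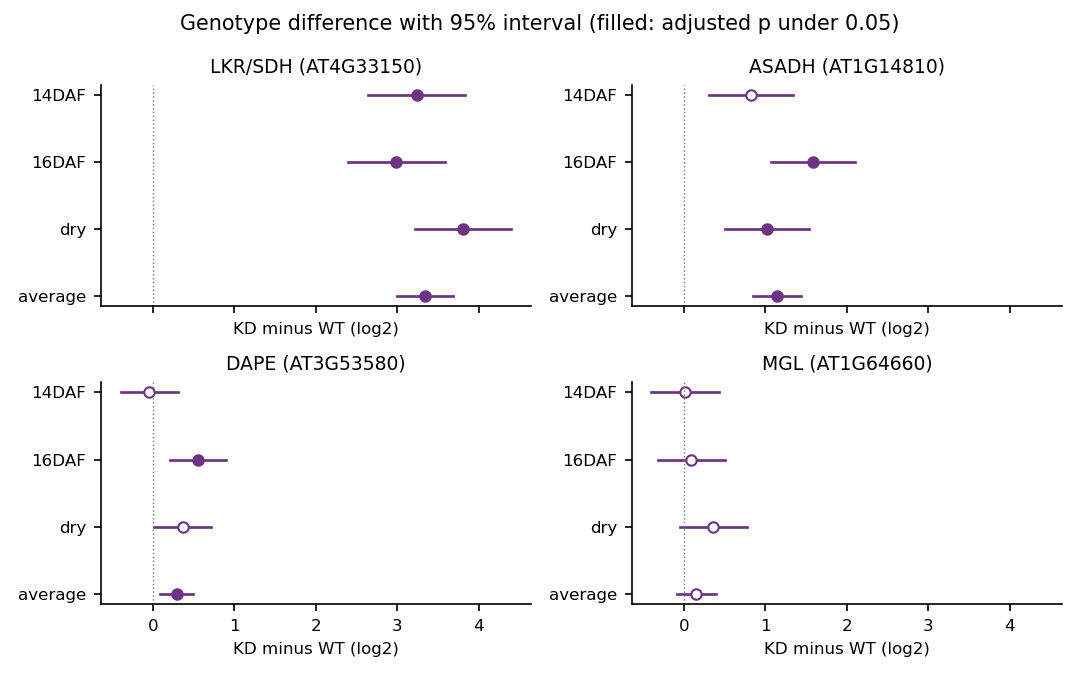
Points are KD minus WT differences on the log2 scale for the 4 genes at each stage and averaged over stages, bars are 95% intervals of the limma fit, and filled points have an adjusted p under 0.05. LKR/SDH lies between 2.98 and 3.80, ASADH between 0.83 and 1.58, DAPE is filled at 16DAF and for the average, and every interval of MGL includes 0.

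DAPE differed little between the genotypes. The 14DAF arrays gave 8.30 and 8.38 in KD, against 8.30 and 8.46 in WT. At 16DAF they gave 8.32 and 8.73 in KD, against 7.90 and 8.04 in WT, and in dry seeds 8.25 and 8.38, against 8.00 and 7.90. The genotypes overlapped at 14DAF and were apart at the later stages, where KD was the higher. Genotypes that do not overlap within a stage, in either direction, were common: the shares over all probe sets were 49.8%, 48.2% and 50.2% at the 3 stages in order. The 16DAF difference of 0.55 (SE 0.156, 1.47-fold) had adjusted p = 0.0467 and the average of 0.29 (SE 0.0899) had 0.0433, while 14DAF (-0.04, SE 0.156, adjusted p = 0.923) and dry seeds (0.36, SE 0.156, adjusted p = 0.216) did not pass. Both calls lay at the edge of the threshold: the 16DAF call was kept in 1 of 12 refits without a single array (without KD 16DAF replicate 1, 0.76) and the average in 2 of 12, and without KD 16DAF replicate 2 the 16DAF difference was 0.35 (adjusted p = 0.293).

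No stage step of DAPE passed in either genotype. Between 14DAF and 16DAF it was 0.18 in KD (SE 0.156, adjusted p = 0.548) and -0.41 in WT (SE 0.156, adjusted p = 0.0989). On drying it was -0.21 in KD (95% interval -0.56 to 0.14) and -0.02 in WT (95% interval -0.37 to 0.33). The group means ran from 8.53 ± 0.29 in KD 16DAF through WT 14DAF, KD 14DAF and KD dry to 7.97 ± 0.10 in WT 16DAF and 7.95 ± 0.07 in WT dry (SD, n = 2 each). The one gap in that order at which neighbouring arrays did not overlap was that between KD dry and WT 16DAF.

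MGL was lower in dry seeds than at 16DAF in both genotypes. The arrays gave 11.34 and 11.40 in KD and 11.40 and 11.31 in WT at 14DAF. They gave 11.45 and 11.43 in KD and 11.52 and 11.18 in WT at 16DAF, and 9.57 and 10.11 in KD and 9.57 and 9.39 in WT in dry seeds. The highest dry array (10.11) lay below the lowest array of the earlier stages (11.18). On drying MGL fell to 9.84 ± 0.38 in dry KD seeds, against 11.44 ± 0.01 at 16DAF (SD, n = 2; log2 change -1.60, SE 0.185, adjusted p = 7.6e-05), and to 9.48 ± 0.13 in dry WT seeds, against 11.35 ± 0.24 (-1.87, SE 0.185, adjusted p = 2.57e-05). Both decreases passed without any single array, with ranges of -1.87 to -1.33 in KD and -2.04 to -1.70 in WT. Of all probe sets 5.28% fell as far as MGL or further in KD and 4.45% in WT.

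No difference between KD and WT passed for MGL. It was 0.02 at 14DAF (95% interval -0.40 to 0.43), 0.09 at 16DAF (-0.32 to 0.50), 0.36 in dry seeds (-0.05 to 0.77) and 0.15 on average (SE 0.107, adjusted p = 0.373). Single dry KD arrays moved these values: without replicate 1 the dry difference was 0.63 and the average 0.24, and without replicate 2 they were 0.09 and 0.07, none of which passed. Without the 2 arrays of conflicting source names the average was 0.30 (adjusted p = 0.048). Its steps before 16DAF were 0.07 in KD (SE 0.185, adjusted p = 0.88) and -0.01 in WT (SE 0.185, adjusted p = 0.988). The difference between the drying steps was 0.27 (SE 0.262, adjusted p = 0.73).

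**Figure D3:**
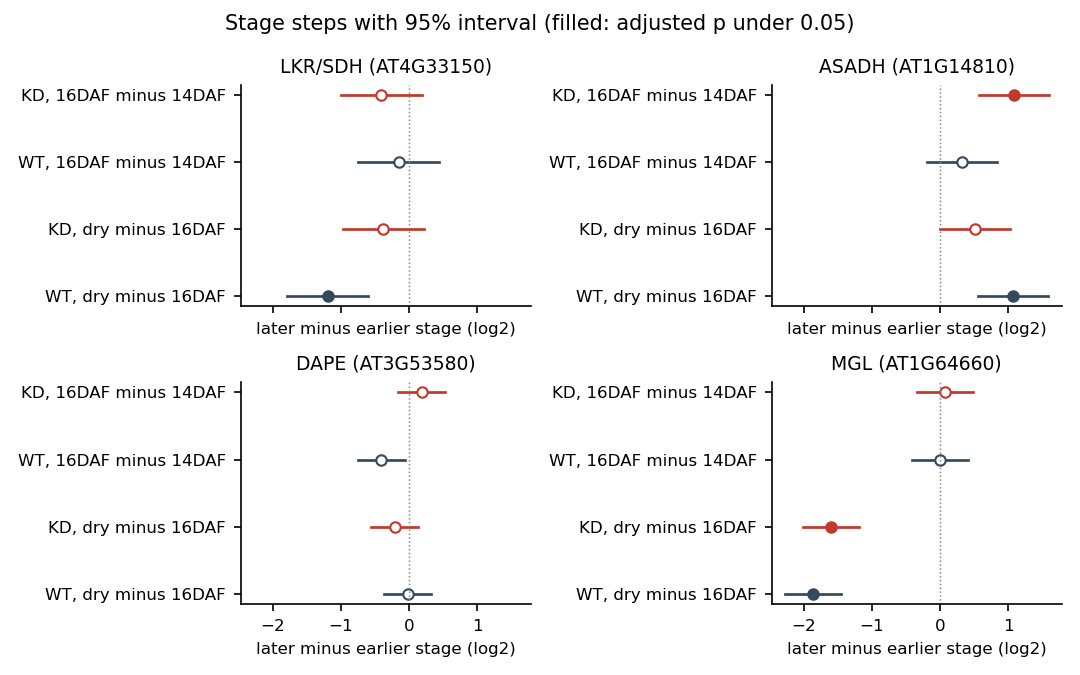
Points are changes on the log2 scale from 14DAF to 16DAF and from 16DAF to dry seeds, KD above WT for each step, with 95% intervals and filled points for an adjusted p under 0.05. The drying decrease of MGL is filled in both genotypes (-1.60 in KD, -1.87 in WT), that of LKR/SDH in WT (-1.20), and ASADH rises in KD before 16DAF (1.08) and in WT on drying (1.08).

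Counted over the 4 genes, calls between the genotypes were all increases in KD. At 14DAF 1 passed, where 7.27% of all probe sets were called and 3.35% were higher in KD. At 16DAF 3 passed (11.1% of all called, 5.22% higher), in dry seeds 2 (7.91% called, 4.01% higher), and for the average 3 (20.2% called, 8.72% higher). For the stage steps from 14DAF to 16DAF 1 passed in KD (9.5% of all) and 0 in WT (19.5% of all; 1 at an unadjusted p under 0.05, DAPE). On drying 1 passed in KD (34.9% of all) and 3 in WT (37.3% of all), 1 an increase (20.4% of all) and 2 decreases (16.9% of all). The interactions gave 0 by limma in either step (0.356% and 1.38% of all probe sets), with 2 genes at an unadjusted p under 0.05 for the step to 16DAF, ASADH and DAPE, and 0 for drying.

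The log2 signal at the 3' end minus that at the 5' end of the array's control transcripts, which rises as RNA is shorter or less fully copied, was 3.85 ± 0.37, 3.57 ± 0.25 and 3.40 ± 0.10 over the 3 stages in KD, against 4.11 ± 0.08, 3.90 ± 0.50 and 3.35 ± 0.13 in WT (SD, n = 2). It moved with the stage, and its part in the decreases of MGL and LKR/SDH and in the increase of ASADH on drying was not tested. The arrays of the 2 genotypes overlapped in this measure at each of the 3 stages (in dry seeds 3.33 to 3.47 in KD, 3.26 to 3.45 in WT). Its mean was higher in WT at the stages before the dry state. The part of this measure in the differences between the genotypes was not tested.

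Other genes of these pathways were read from lists by locus. Of 66 listed genes 16 had a probe set naming them alone; 0 of the other 12 genes of lysine synthesis did, so the steps between ASADH and DAPE could not be read here. Averaged over stages 5 of the 16 were higher in KD and 3 lower, with 8.72% and 11.5% of all probe sets higher and lower. Their median difference was -0.14, against -0.01 over all probe sets. At 14DAF 1 was higher and 1 lower, where 3.35% and 3.92% of all probe sets were. At 16DAF 5 were higher and 2 lower (5.22% and 5.88% of all), and in dry seeds 3 and 0 (4.01% and 3.9% of all).

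**Figure D4:**
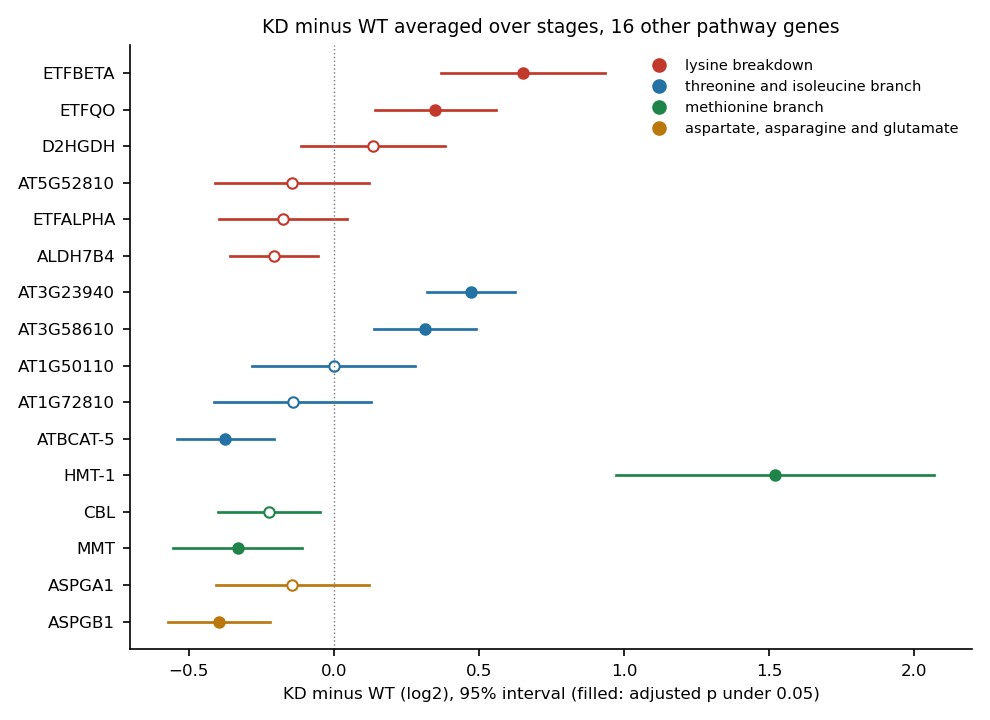
Points are KD minus WT differences averaged over the 3 stages, on the log2 scale, for the 16 other measured pathway genes, coloured by list, with 95% intervals and filled points for an adjusted p under 0.05. HMT-1 lies farthest to the right at 1.52; ETFBETA, AT3G23940, ETFQO and AT3G58610 are filled above 0 and ATBCAT-5, MMT and ASPGB1 below it.

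Of the 6 other measured genes listed for lysine breakdown, 2 were higher in KD on average and 0 were lower. Over all probe sets the shares were 8.72% and 11.5%, and the counts were not tested against them. ETFBETA, a subunit of the electron transfer flavoprotein that takes up electrons from the breakdown of amino acids, read 8.47 and 8.62 in KD at 16DAF, against 7.51 and 7.46 in WT, and 8.41 and 8.44 in dry KD seeds, against 7.79 and 7.18 in dry WT seeds. Its average difference was 0.65 (SE 0.128, adjusted p = 0.00508), although the groups overlapped at 14DAF. ETFQO, which passes those electrons to ubiquinone, read 7.49 on both dry KD arrays, against 6.72 and 6.93 in dry WT seeds (average 0.35, SE 0.0939, adjusted p = 0.0242); this call was kept in 6 of 12 refits without a single array. ETFALPHA, the partner subunit of ETFBETA, did not pass (-0.18, SE 0.099, adjusted p = 0.266).

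ALDH7B4, an aldehyde dehydrogenase whose animal relative acts on the semialdehyde made by LKR/SDH, rose on drying in both genotypes. It read 12.12 and 12.20 in dry KD seeds, against 11.02 and 11.16 at 16DAF (1.07, SE 0.118, adjusted p = 5.37e-05), and 11.95 and 11.90 in dry WT seeds, against 11.39 and 11.45 (0.50, SE 0.118, adjusted p = 0.0063). LKR/SDH fell over that step in WT. The average genotype difference of ALDH7B4 was -0.21 (SE 0.0679) with adjusted p = 0.0571. At 14DAF it was lower in KD (11.23 and 11.29, against 11.79 and 11.78 in WT, difference -0.53, SE 0.118, adjusted p = 0.0262; kept in 8 of 12 refits without a single array), and in dry seeds the difference was 0.23 (SE 0.118, adjusted p = 0.309). ETFALPHA fell between 14DAF and 16DAF in KD (-0.80, SE 0.172, adjusted p = 0.0187; kept in 8 of 12 such refits) and in WT (-1.07, SE 0.172, adjusted p = 0.00178).

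On the methionine branch, HMT-1, a homocysteine methyltransferase that makes methionine, differed most between the genotypes among the 16 genes. The arrays gave 4.94 and 4.69 in KD at 14DAF, against 4.09 and 4.12 in WT. They gave 5.94 and 7.44 in KD at 16DAF, against 4.07 and 4.89 in WT, and 5.90 and 6.54 in dry KD seeds, against 4.46 and 4.71 in dry WT seeds. The WT signals were dim, below the array medians, so the size of the difference is uncertain. The average was 1.52 (SE 0.247, adjusted p = 0.00176; 1.27 to 1.77 without any single array), and the 16DAF difference of 2.21 (SE 0.427, adjusted p = 0.00878) was 1.46 without KD 16DAF replicate 2. CBL, cystathionine beta-lyase, rose on drying in KD (0.72, SE 0.136, adjusted p = 0.00196) and in WT (1.22, SE 0.136, adjusted p = 5.89e-05), while MGL fell. MMT, methionine S-methyltransferase, was lower in KD on average (-0.33, SE 0.0992, adjusted p = 0.0391), a call kept in 2 of 12 refits without a single array.

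**Figure D5:**
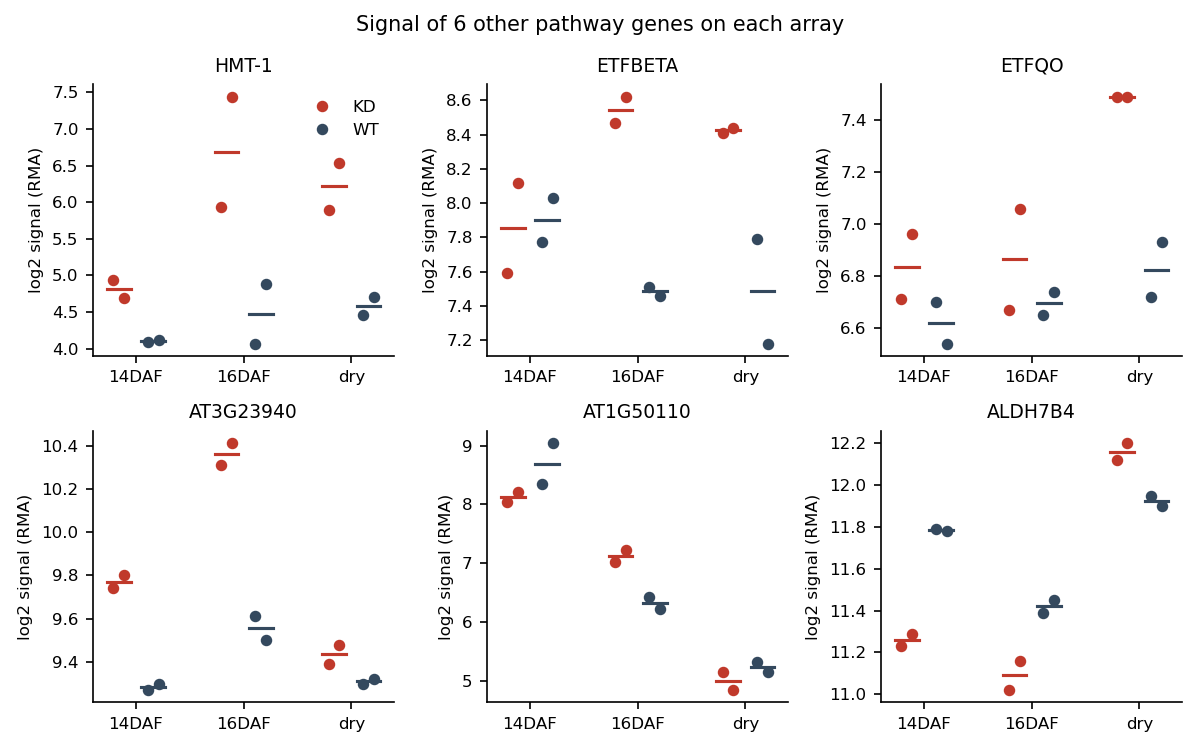
Each point is 1 array's log2 signal, KD to the left of WT at each stage, with lines at the means of 2 arrays, for 6 other pathway genes picked after their values were seen. HMT-1 and ETFBETA part from WT at 16DAF and in dry seeds, ETFQO in dry seeds and AT3G23940 most at 16DAF, AT1G50110 falls with maturation in both genotypes, and ALDH7B4 is highest in dry seeds; the vertical scales differ between panels.

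In the threonine and isoleucine list 2 of 5 measured genes were higher in KD on average and 1 was lower. Of all probe sets 8.72% were higher and 11.5% lower on this average, and the counts were not tested against these shares. AT3G23940 read 9.74 and 9.80 in KD at 14DAF, against 9.27 and 9.30 in WT, and 10.31 and 10.41 in KD at 16DAF, against 9.61 and 9.50 in WT (average 0.47, SE 0.0679, adjusted p = 0.000908). It then fell on drying in KD (-0.92, SE 0.118, adjusted p = 0.000144), while the WT step of -0.24 did not pass (adjusted p = 0.136); the difference between the steps was not past the threshold (adjusted p = 0.087). ATBCAT-5 was lower in KD (-0.37, SE 0.075, adjusted p = 0.0058). AT1G50110 fell on drying in KD (-2.13, SE 0.219, adjusted p = 3.37e-05) and in WT (-1.08, SE 0.219, adjusted p = 0.00271). It had also fallen between 14DAF and 16DAF, in KD (-1.005, SE 0.219, adjusted p = 0.0198, kept in 8 of 12 refits without a single array) and in WT (-2.37, SE 0.219, adjusted p = 8.64e-05). The difference between the genotypes' steps passed for 0 of the 5 genes of this list, before 16DAF and on drying. By limma 2 and 3 of the 5 had an unadjusted p under 0.05 for it. The asparaginase gene ASPGB1 was lower in every KD array (4.97 to 5.21) than in every WT array (5.28 to 5.71), a pattern found in 0.769% of all probe sets, with an average of -0.40 (SE 0.0789, adjusted p = 0.00565). These signals lay near the array medians (4.91 to 5.28), so the size of the difference is uncertain.

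The genes most like each member over the 12 arrays were ranked by Pearson's r among 13512 other probe sets naming 1 gene, as a description. Since the arrays fall into 6 groups of 2, r largely compares group means. For LKR/SDH they were AT1G15930 (r = 0.963, rho = 0.846), AT5G27700 (0.959, 0.916), AT3G09200 (0.954, 0.923), AT3G56120 (0.949, 0.916) and AT2G14460 (0.944, 0.867). For ASADH they were AT3G02200 (0.975, 0.972), AT4G00090 (0.965, 0.951), AT2G36930 (0.963, 0.958), AT1G16870 (0.96, 0.963) and IMP4 (0.958, 0.979). The partners of LKR/SDH were above WT in KD at every stage, but by less: AT5G27700 averaged 11.86, 12.04 and 11.82 in KD over the 3 stages and 11.34, 10.98 and 10.79 in WT.

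For DAPE the closest was AT3G24570 (r = 0.937, rho = 0.858), followed by AT4G27090 (0.932, 0.773) and AT5G20290 (0.925, 0.931). For MGL the values reached r = 0.995 with AT1G33700 and 0.993 with AT2G25520, and these genes too were low in the dry state. AT1G33700 averaged 6.46 in dry KD seeds and 5.78 in dry WT seeds, against 10.20 and 10.18 at 16DAF. By rank correlation the order changed: 0 of the 5 partners of LKR/SDH and 1 of 5 for each other member stayed among the 5 closest.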

How the data were processed

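Total RNA of 12 seed samples was hybridised to ATH1 arrays. The deposited values are log2 signals per probe set; RMA and Partek made them per the submitters' processing notes, with versions and settings not given in the sources used here. The log2 scale was inferred from the values' range. RMA aligns the arrays' distributions, so a shift of all transcripts would be hidden. Of 22810 probe sets, 64 controls were removed; 13513 (59.4%) named 1 gene. Locus codes and neighbours came from the TAIR10.1 gene table, whose coordinates are not printed because the files name no build. Sequences and promoter motifs were not analysed here.

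Groups came from the titles, except that the title of WT dry replicate 1 gives only the accession, WS; its source name, description and genotype label give WT. limma 3.58.1 in R 4.3.3 was fitted to 6 group means over 12 arrays (6 residual and 4.16 prior degrees of freedom), with 10 contrasts, two-sided p-values adjusted by Benjamini-Hochberg over 22746 probe sets and a threshold of 0.05. Each SE printed with a log2 difference comes from that fit. The fit was tested on simulated data for KD minus WT in dry seeds, with independent spread and no batches. It recovered 72% of 100 changes of log2 size 1 and 100% of 100 changes of size 2, with 5 false calls. A change of log2 size 1 can thus be missed. Nothing in the labels says that repeats were separate plants, so p-values measure only how far these repeat arrays spread, perhaps for technical reasons; the number of arrays limits precision. The main fit did not pair samples by replicate number. Deviations between replicates correlated at -0.33 to 0.417 over 15 pairs of groups and above 0.1 in 3 of them, highest between KD 16DAF and WT 16DAF. A replicate effect shared by the 16DAF arrays alone was not tested. Of the pathway lists, up to 4 genes with the largest average genotype difference and up to 4 with the largest stage change could be named. Members and lists were chosen with earlier results of these data known. Alternatives were the arrays of a contrast alone, centring, quantile normalization, a mean log2 above 5, a variance trend, a replicate block, and leaving out arrays. Tables and plots used Python 3.11.15, pandas 2.3.3 and matplotlib 3.10.9.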

Additional observations from a re-analysis of the deposited data

How the results depend on the processing

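LKR/SDH was higher in KD under every alternative run, at each stage and on average, as was ASADH at 16DAF and on average, MGL fell on drying in both genotypes, and in WT LKR/SDH fell and ASADH rose on drying; all of these passed each time.

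Other values crossed the threshold as follows. ASADH at 14DAF (0.83) passed with the arrays centred (0.88), after quantile normalization (0.97) and above a mean log2 of 5 (0.83), and its KD drying step (0.52) passed from the arrays of that contrast alone (0.52) and centred (0.70); in dry seeds it was 1.01 (adjusted p = 0.091) without the 2 arrays of conflicting source names. DAPE at 16DAF did not pass from its own arrays (0.55, adjusted p = 0.198), with a variance trend (0.55, 0.0687), without the 2 arrays of conflicting source names (0.48, 0.196) or with the replicate block (0.55, 0.0506), and its average did not with the trend (0.29, 0.0644) or without those 2 arrays (0.29, 0.109). The block changed no other call of the 4 genes. MGL's average passed without those 2 arrays (0.30).

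Values that did not pass changed sign in some settings. DAPE at 14DAF was 0.01 centred and 0.025 after quantile normalization, and its WT drying step 0.18 centred. MGL's WT step to 16DAF was 0.095 centred and 0.0087 after quantile normalization, which also gave -0.0435 for its KD step and -0.0523 for its interaction. LKR/SDH's WT step to 16DAF was 0.26 without the 2 arrays of conflicting source names.

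Leaving out each array in turn gave these ranges. KD minus WT at 14DAF was 0.46 to 1.21 for ASADH, -0.12 to 0.04 for DAPE and -0.03 to 0.06 for MGL; at 16DAF 0.35 to 0.76 for DAPE and -0.08 to 0.26 for MGL; in dry seeds 0.89 to 1.16 for ASADH and 0.09 to 0.63 for MGL; on average 0.23 to 0.36 for DAPE and 0.065 to 0.245 for MGL. The step to 16DAF in KD was -0.69 to -0.12 for LKR/SDH, 0.94 to 1.24 for ASADH and -0.02 to 0.39 for DAPE; in WT -0.56 to 0.26 for LKR/SDH, -0.045 to 0.705 for ASADH and -0.17 to 0.16 for MGL. The drying step in KD was -0.555 to -0.195 for LKR/SDH, 0.37 to 0.67 for ASADH and -0.415 to -0.005 for DAPE; in WT it was -0.09 to 0.05 for DAPE. Interactions before 16DAF were -0.66 to 0.15 for LKR/SDH, -0.10 to 0.24 for MGL, 0.38 to 1.13 for ASADH and 0.39 to 0.80 for DAPE, and on drying 0.415 to 1.225 for LKR/SDH, -0.395 to 0.015 for DAPE and 0.0 to 0.54 for MGL.

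Counts over all probe sets moved more. Centring raised the share of increases among the calls to 67.4% and 59.0% for the steps to 16DAF in KD and WT (48.8% and 47.2% as deposited) and to 70.0% and 70.5% for drying (56.1% and 54.7%), as array medians averaged 4.92 in dry KD and 4.95 in dry WT seeds, against 5.09 and 5.16 at 16DAF. For KD minus WT, centring raised it to 55.2% at 14DAF (46.1%), 55.9% at 16DAF (47.0%), 55.6% in dry seeds (50.7%) and 52.9% on average (43.2%). Quantile normalization raised it to 56.7% for KD minus WT at 14DAF. From the arrays of a contrast alone 936 passed at 14DAF (1654 over all arrays), 869 at 16DAF (2525), 2010 for the WT step to 16DAF (4429), and 1 and 176 for the interactions before and on drying (81 and 313). The interaction before 16DAF had 53 with the trend and 22 with the replicate block; that on drying had 164 with the block and 69 once the 2 arrays with conflicting source names were dropped. Without single arrays the counts were 441 to 2111 at 14DAF, 1019 to 2467 at 16DAF, 612 to 2255 in dry seeds, 2219 to 4413 for the WT and 430 to 2789 for the KD step to 16DAF, and 3 to 458 and 72 to 425 for the interactions. The cause of these shifts was not tested. For the other named pathway genes 692 of 821 refits kept direction and call, 128 lost the call, 1 gained it and 0 changed sign; this leaves out the average genotype difference of AT1G50110, which was 0 and took both signs (-0.1167 to 0.1167 without single arrays) with no call. No outlier search was possible with 2 arrays a group, and signals near or below the array medians have uncertain sizes.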
